A study of Mus musculus with 6 samples.

Results

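The conjugation enzymes described here are the glucuronosyltransferases, glutathione transferases and sulfotransferases of the mouse liver that join a water-soluble group to drugs, steroids, bilirubin and reactive lipid products. The members were all genes of the deposited table whose symbol starts with Ugt1, Ugt2 or Ugt3 followed by a or b, with Gst followed by a class letter (a, k, m, o, p, t or z) and a number, with Mgst and a number, or with Sult1, Sult4, Sult5 or Sult6 followed by a letter from a to e and a number. This rule took 57 of 22274 genes, namely 21 Ugt genes, 26 Gst and Mgst genes and 10 Sult genes. Sulfotransferases of the Sult2 and Sult3 families are outside it. RNA of whole liver from C57 mice was sequenced in 3 samples labelled Ad-Dyrk1b, where an adenovirus overexpressed mouse Dyrk1b, and in 3 samples labelled Ad-EGFP, which had a control adenovirus. Every animal thus carried an adenovirus, and no group without virus is part of the comparison. The labels used here do not give sex, age, virus dose or time after injection. Whether each sample is a mouse of its own is not stated either, and p-values then measure only the spread between samples, which may be technical.

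Conjugation is the second phase of xenobiotic metabolism. UDP-glucuronosyltransferases sit in the endoplasmic reticulum membrane and move glucuronic acid from UDP-glucuronic acid to their substrates, and the Ugt1a enzymes share 1 genomic locus. Cytosolic glutathione transferases form the alpha, mu, pi, omega, theta and zeta classes, while the kappa class is found in mitochondria and peroxisomes. These enzymes and the membrane-bound Mgst enzymes attach glutathione to electrophiles or reduce peroxides. Sulfotransferases use the activated sulfate PAPS. In liver many of these genes are known targets of xenobiotic-sensing transcription factors, and the conjugates leave the hepatocyte through ABC transporters.

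Many of these genes are close copies of each other, so their sequences are given first, because a read can only be assigned to 1 gene where the copies differ. The pi class has 3 members side by side on chromosome 19 (mm10, minus strand): Gstp1 at 4035407 to 4037985, Gstp2 at 4040285 to 4046023 and Gstp3 at 4057477 to 4059569. Their first 60 coding bases, from GENCODE M21 transcripts, are printed with bases that differ from Gstp1 in capitals. There are 6 differences in Gstp2 and 11 in Gstp3. This stretch was picked for the most differences between Gstp1 and Gstp2, which differed at 12 of 630 aligned positions over their whole coding sequences.
Gstp1: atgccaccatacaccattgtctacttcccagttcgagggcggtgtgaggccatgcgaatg
Gstp2: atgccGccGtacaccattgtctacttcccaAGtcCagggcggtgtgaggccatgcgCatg
Gstp3: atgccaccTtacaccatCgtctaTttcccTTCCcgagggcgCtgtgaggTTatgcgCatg

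Over the whole coding sequence Gstp1 and Gstp2 were 98.1% identical, and Gstp1 and Gstp3 were 73.1% identical. Of all stretches of 100 bases in the Gstp1 transcript, 52.8% also occurred in a transcript of another gene, whereas 0% of those of Gstp3 did. Counts of Gstp3 can therefore be told from those of the other pi genes, while counts of Gstp1 and Gstp2 depend on how shared reads were assigned, which the sources used here do not give.

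In the alpha class, Gsta1, Gsta2 and Gsta5 are near copies on chromosome 9. Coding bases 449 to 508 show them, with bases that differ from Gsta1 in capitals (5 in Gsta2 and 3 in Gsta5). This stretch was picked for the most differences between Gsta1 and Gsta2. Over their whole coding sequences 16 of 669 aligned positions differed.
Gsta1: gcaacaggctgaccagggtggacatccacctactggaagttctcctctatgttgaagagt
Gsta2: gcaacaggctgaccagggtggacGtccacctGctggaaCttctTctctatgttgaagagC
Gsta5: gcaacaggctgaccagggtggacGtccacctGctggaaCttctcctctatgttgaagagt

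Gsta2 and Gsta5 were 98.5% identical in their coding sequences, and Gsta1 and Gsta2 97.6%. In Gsta1, 81.8% of 100-base stretches were shared with other genes, mostly with Gm3776, a gene outside the symbol rule. The share was 35.0% for Gsta2 and 30.0% for Gsta5. The mu class genes differ more from each other, with 64.0% to 85.2% coding identity between pairs. Gaps count as differences here, and the Gstm1 coding sequence used has 732 bases, against 654 in Gstm2, Gstm3, Gstm4 and Gstm7. Part of the low identities thus comes from length. The shared share of the mu genes ran from 0% for Gstm4, Gstm5 and Gstm7 to 13.8% for Gstm3.

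The Ugt1a genes lie in 1 block on chromosome 1 (mm10, 88055388 to 88220002, plus strand). The genes are known for first exons of their own, and all 9 end in the same last 737 coding bases. The transcripts used hold 8 different coding parts before that end. The first 60 coding bases of Ugt1a6a and Ugt1a6b are identical (0 differences), while Ugt1a1 differs from Ugt1a6a at 41 of 60 bases, shown in capitals.
Ugt1a6a: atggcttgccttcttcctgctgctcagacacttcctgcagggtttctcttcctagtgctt
Ugt1a6b: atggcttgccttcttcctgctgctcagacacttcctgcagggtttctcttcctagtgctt
Ugt1a1: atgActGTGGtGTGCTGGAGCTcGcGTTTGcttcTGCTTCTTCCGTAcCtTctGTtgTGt

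Ugt1a6a and Ugt1a6b were 98.4% identical over their coding sequences. The GENCODE transcript used for Ugt1a7c has the same coding sequence as Ugt1a6a, so 100% of the 100-base stretches of Ugt1a6a were shared, against 71.5% in Ugt1a6b and 57.2% in Ugt1a1. Values of single Ugt1a genes are therefore uncertain, and sums are given beside them.

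Dyrk1b itself was 62.23, 100.65 and 96.47 FPKM in the Ad-Dyrk1b libraries and 3.81, 4.97 and 4.16 FPKM in the Ad-EGFP libraries, so the targeted gene was high in every library labelled Ad-Dyrk1b and low in every control. Reads of the virus-borne and the mouse gene are not separated. Total counts were 17326516 to 20024888 per library, so 3 counts correspond to 0.150 to 0.173 CPM (counts scaled to library size). The summed CPM of 6 hepatocyte markers (Alb, Apoa1, Ttr, Serpina1c, Tat and Fgb) was 61663, 68240 and 76279 in Ad-Dyrk1b and 79905, 75935 and 77025 in Ad-EGFP libraries, and these genes were not called. In whole liver RNA, fewer cells of a type and less RNA per cell cannot be told apart.

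Of the 57 conjugation enzymes, 46 had enough counts for testing. Between Ad-Dyrk1b and Ad-EGFP livers 13 were higher and 4 were lower by the quasi-likelihood F-test of edgeR at an adjusted p under 0.05. Over all 13201 tested genes, 12.2% were called, 7.36% as higher and 4.81% as lower. Among the enzymes the shares were 28.3% higher and 8.70% lower. The median log2 fold change (Ad-Dyrk1b over Ad-EGFP) of the 46 was 0.32, against -0.005 for all tested genes, with 35 values above 0 and 11 below. The FPKM values (counts scaled by the authors to gene length and library size) did not overlap between groups for 16 enzymes that were higher and 5 that were lower. Over all tested genes 32.8% did not overlap, 10.9% as higher and 21.9% as lower.

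**Figure D1:**
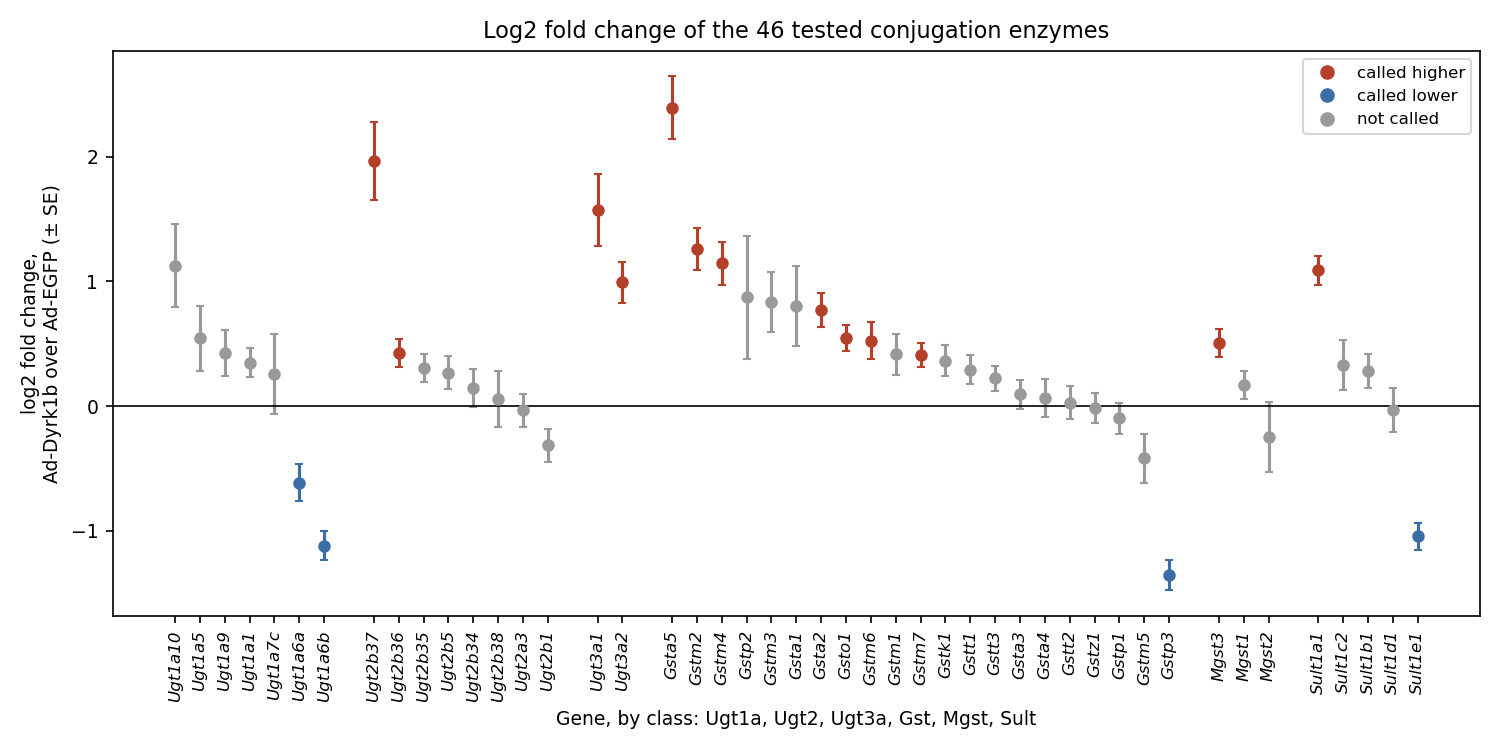
Log2 fold change (Ad-Dyrk1b over Ad-EGFP, y axis) of the 46 tested conjugation enzymes, ordered by class, with standard errors from the edgeR fit as bars. Red points are called higher (13), blue points called lower (4) and grey points not called (29). The 4 blue points are Ugt1a6a, Ugt1a6b, Gstp3 and Sult1e1.

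The 11 enzymes with too few counts were Gsto2, Gstt4, Sult1c1, Sult4a1, Sult5a1, Sult6b1, Sult6b2, Ugt1a2, Ugt1a8, Ugt2a1 and Ugt2a2. Sult1c1, Ugt2a1 and Ugt2a2 had 0 counts in all 6 libraries. The highest count among the other 8 was 25, for Sult5a1 in Ad-Dyrk1b replicate 3.

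One library stood apart in many of these genes. Ad-Dyrk1b replicate 3 was the lowest of its group in 25 of the 46 tested enzymes (54.3%), against 34.5% of all tested genes. The count was 15 of 24 for Gst and Mgst genes, 10 of 17 for Ugt genes and 0 of 5 for Sult genes. In 9 of the 46 (Gsta1, Gsta4, Gstm1, Gstm3, Gstm6, Gstp2, Ugt1a9, Ugt2b35 and Ugt2b5), replicates 1 and 2 were above all controls and replicate 3 was not. That is 19.6%, against 3.51% of all tested genes. Without this library edgeR called 17 enzymes as higher and 4 as lower, the added ones being Gstm3, Gstm1, Gsta1 and Gstp2. This fit is given here and below because the library was low in these same genes. Its smaller p-values are therefore no added support for a difference.

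In the same library, the summed CPM of 5 erythroid markers (Hbb-bs, Hbb-bt, Hba-a1, Hba-a2 and Alas2) was 3668, against 883 and 1038 in the other Ad-Dyrk1b libraries and 523, 712 and 872 in Ad-EGFP. The 6 hepatocyte markers were at 76279 CPM there, within the control values of 75935 to 79905. The part of red blood cell RNA in the enzyme values was not tested. Over the other marker lists, T and NK cell genes were 45.6, 31.5 and 40.8 CPM in Ad-Dyrk1b against 19.7, 27.5 and 24.4 CPM, with 2 of 6 called (Gzmb and Trbc2). Bile duct genes were 434, 390 and 318 CPM against 201, 248 and 237 CPM, with 5 of 6 log2 fold changes above 0. Of these genes edgeR called Spp1 alone. Sox9 was also apart between groups, at 2.23, 1.56 and 1.85 FPKM against 1.42, 0.88 and 1.42 FPKM (log2 fold change 0.67 ± 0.22, adjusted p = 0.068), while Krt7, Krt19, Epcam and Cftr stayed at 3.86 FPKM or lower in every library. Kupffer cell, sinusoidal endothelial and stellate cell sums overlapped between groups. Their part in the results was not tested either.

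Levels spanned a wide range, with the mean over all 6 libraries as the measure. Gstm1 (4815 FPKM), Gstp1 (3231 FPKM), Mgst1 (1954 FPKM) and Gstm3 (1940 FPKM) were the most abundant and together held 66.5% of the summed FPKM of all 57. These 4 genes were not called. The 17 called enzymes ran from Ugt2b37 at 1.67 FPKM to Gstm2 at 354 FPKM.

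The alpha class of glutathione transferases, which act on lipid peroxidation products and steroid precursors, had 5 tested members. Of these, Gsta5 and Gsta2 were higher (40%, against 7.36% of all tested genes). Gsta5 stood at 19.65, 16.80 and 10.91 FPKM in Ad-Dyrk1b replicates 1, 2 and 3 and at 2.51, 4.08 and 3.02 FPKM in the Ad-EGFP replicates. All 3 Ad-Dyrk1b values lay above the highest control value. The log2 fold change was 2.39 ± 0.25 (SE), a 5.26-fold difference, with an adjusted p of 9.69e-05. It was the largest fold difference among the 46 enzymes, from a low level. Of the Gsta5 stretches, 48.0% of those of 50 bases and 30.0% of those of 100 bases also occurred in other genes. These include the more abundant Gsta1, Gsta2 and Gm3776. Whether reads of such genes entered the low Gsta5 counts was not tested.

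Gsta2 was 479, 446 and 321 FPKM in Ad-Dyrk1b and 250, 267 and 258 FPKM in Ad-EGFP livers. The groups did not overlap, and its log2 fold change was 0.77 ± 0.14 (adjusted p = 0.0034). Gsta1 was 1105, 1002 and 444 FPKM in Ad-Dyrk1b and 452, 575 and 521 FPKM in Ad-EGFP livers. Replicates 1 and 2 were above all controls and replicate 3 was below them all. Its log2 fold change of 0.80 ± 0.32 did not pass the test (adjusted p = 0.158). With its lowest Ad-Dyrk1b value (replicate 3) left out, it was 1.11 with an adjusted p of 0.000181.

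Gm3776, the near copy of Gsta1, also had its lowest Ad-Dyrk1b value in replicate 3, at 1164, 1147 and 500 FPKM in Ad-Dyrk1b and 465, 724 and 515 FPKM in Ad-EGFP livers (log2 fold change 0.81 ± 0.34, adjusted p = 0.183). Summed, Gsta1 and Gm3776 came to 1984, 1879 and 826 CPM against 801, 1136 and 906 CPM, a ratio of means of 1.65, or 2.04 without Ad-Dyrk1b replicate 3. The low value of replicate 3 was thus present in the sum of the pair as well.

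Gsta3, the most abundant alpha member, was 911, 818 and 908 FPKM in Ad-Dyrk1b and 935, 824 and 858 FPKM in Ad-EGFP livers. Gsta4, known for conjugating 4-hydroxynonenal, was 329, 297 and 199 FPKM against 283, 273 and 281 FPKM. Both overlapped between groups, with log2 fold changes of 0.09 ± 0.12 and 0.06 ± 0.15.

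In the mu class, which detoxifies epoxides and quinones, 4 of 7 tested members were called higher (57.1%, against 7.36% of all tested genes). The number depended on the fit, with 2 called by log2(FPKM + 1) and 6 by DESeq2. Of the 7 values 6 were above 0, against 6515 of all 13201. The class median log2 fold change was 0.52. Gstm2 was 548, 558 and 365 FPKM in Ad-Dyrk1b and 219, 246 and 186 FPKM in Ad-EGFP livers, with no overlap. Its log2 fold change was 1.26 ± 0.17 (2.40-fold, adjusted p = 0.00093). Gstm4 was 206, 176 and 115 FPKM against 78.3, 84.5 and 71.2 FPKM, again with no overlap. Its log2 fold change was 1.15 ± 0.17 (2.21-fold, adjusted p = 0.0023).

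Gstm7 and Gstm6 also rose, with smaller fold changes. Gstm7 was 65.0, 57.2 and 58.3 FPKM in Ad-Dyrk1b and 47.0, 46.3 and 47.0 FPKM in Ad-EGFP livers (log2 fold change 0.41 ± 0.10, adjusted p = 0.0175). Gstm6 was 93.1, 87.7 and 66.2 FPKM against 70.6, 61.3 and 50.1 FPKM, so that replicate 3 lay below the highest control (log2 fold change 0.52 ± 0.15, adjusted p = 0.0397). Both calls ended when Ad-Dyrk1b replicate 1 or 2, or control replicate 2 or 3, was left out, with adjusted p up to 0.0614 for Gstm7 and 0.128 for Gstm6.

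The abundant Gstm1 and Gstm3 did not pass. Gstm3 was 2738, 2990 and 1568 FPKM in Ad-Dyrk1b and 1389, 1761 and 1196 FPKM in Ad-EGFP livers, just outside the threshold (log2 fold change 0.83 ± 0.24, adjusted p = 0.0575). Without Ad-Dyrk1b replicate 3 its log2 fold change was 1.07 (adjusted p = 0.00183), and DESeq2 and limma-voom also called it. Gstm1 was 6192, 5830 and 4076 FPKM against 4493, 4611 and 3688 FPKM, with replicate 3 inside the control range (log2 fold change 0.41 ± 0.17, adjusted p = 0.122; 0.57 and adjusted p = 0.0286 without replicate 3). Gstm5, at 8.68, 7.82 and 11.2 FPKM against 14.1, 10.2 and 14.7 FPKM, had the only value below 0 in the class (-0.42 ± 0.20, adjusted p = 0.181).

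Gstm5 lies at one end of the mu cluster on chromosome 3 (mm10, 107895821 to 108044894), followed by Gstm7, Gstm6, Gstm3, Gstm2, Gstm1 and Gstm4. Gstm5 is on the plus strand and the other 6 are on the minus strand. Summed over the 7 genes, the mu class came to 12609, 12428 and 8001 CPM in Ad-Dyrk1b and 8077, 8735 and 6724 CPM in Ad-EGFP livers. Replicates 1 and 2 were above every control, whereas replicate 3 was below 2 of the 3 controls. The ratio of means was 1.40, and 1.60 without replicate 3.

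**Figure D2:**
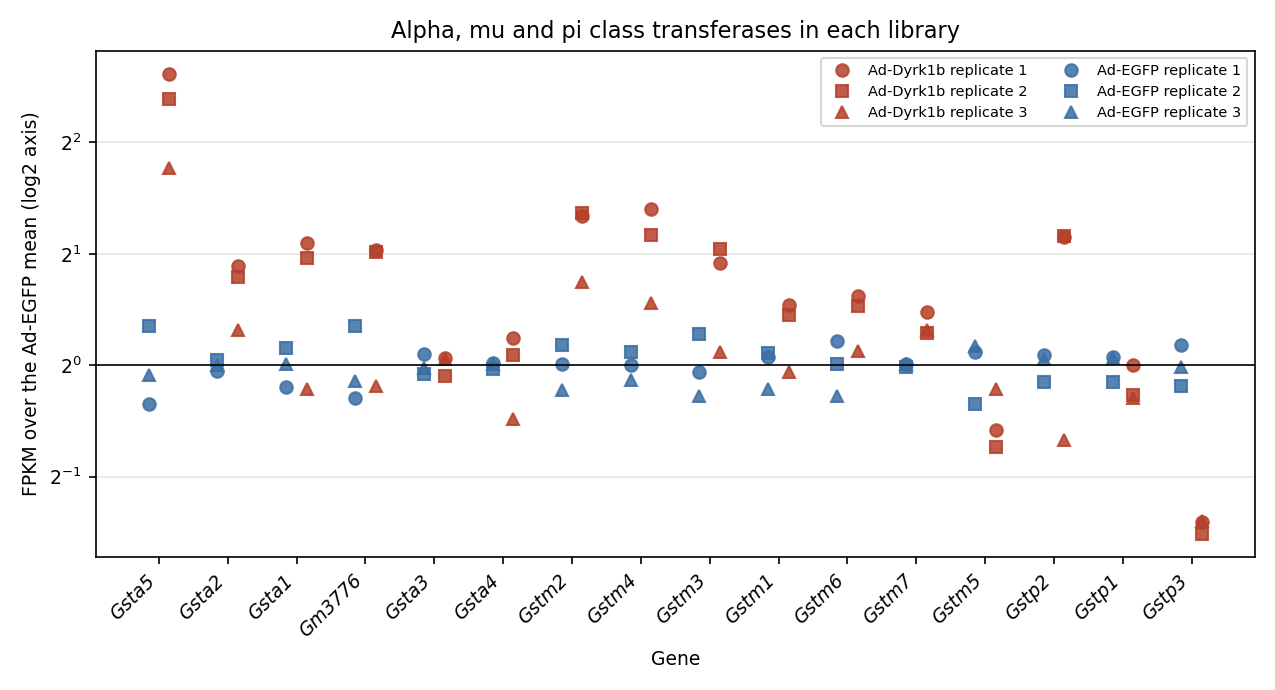
FPKM of all tested alpha, mu and pi class transferases and of Gm3776 in each library, divided by the mean of the 3 Ad-EGFP libraries (log2 axis, where the line marks the control mean). Red symbols are Ad-Dyrk1b and blue symbols Ad-EGFP libraries, with circles, squares and triangles for replicates 1, 2 and 3. The Ad-Dyrk1b triangle is the lowest of the red symbols except for Gsta3 and Gstm7, where the square is the lowest, and for Gstm5 and Gstp3, where the triangle is the highest.

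The pi class went the other way in 1 member. Gstp3 was 54.0, 50.4 and 54.5 FPKM in Ad-Dyrk1b and 163, 126 and 142 FPKM in Ad-EGFP livers. The groups were far apart and the Ad-Dyrk1b values close together. Its log2 fold change was -1.36 ± 0.12 (adjusted p = 2.31e-05), and it stayed called in all 12 alternative fits. Gstp1, the abundant pi enzyme of mouse liver, was 3433, 2859 and 2799 FPKM against 3612, 3092 and 3594 FPKM, with overlap (log2 fold change -0.10 ± 0.13, adjusted p = 0.648).

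Gstp2 was 51.1, 51.3 and 14.4 FPKM in Ad-Dyrk1b and 24.5, 20.7 and 23.8 FPKM in Ad-EGFP livers. As with Gsta1, replicates 1 and 2 were above all controls and replicate 3 below all of them. The log2 fold change of 0.87 ± 0.50 did not pass (adjusted p = 0.322). With the lowest Ad-Dyrk1b value (replicate 3) left out, it was 1.26 with an adjusted p of 0.000177. The sum of Gstp1 and Gstp2 was 2853, 2384 and 2307 CPM against 2980, 2551 and 2965 CPM, a ratio of 0.888 with overlapping groups. Gstp1 held 95.1% to 97.6% of the summed FPKM of the class in every library.

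Stretches upstream of the 3 pi genes are shown because these neighbours moved differently. They are the 250 bases before the RefSeq start sites (GRCm38.p6, minus strand, printed 5′ to 3′), at chr19:4037913-4038162 for Gstp1, chr19:4042222-4042471 for Gstp2 and chr19:4059448-4059697 for Gstp3. The GENCODE models of Gstp1 and Gstp3 begin inside their windows, and the Gstp2 window lies inside the GENCODE span of its gene. Capitals mark TGAGTCA, the motif of AP-1 factors, at 74 bases before the start in Gstp1 and 89 in Gstp2.
Gstp1 upstream: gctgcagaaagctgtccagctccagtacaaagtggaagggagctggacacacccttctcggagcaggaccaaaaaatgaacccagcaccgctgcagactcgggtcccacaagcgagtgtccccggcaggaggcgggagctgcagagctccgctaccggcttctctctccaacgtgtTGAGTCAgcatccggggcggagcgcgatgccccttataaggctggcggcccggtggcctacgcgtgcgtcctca
Gstp2 upstream: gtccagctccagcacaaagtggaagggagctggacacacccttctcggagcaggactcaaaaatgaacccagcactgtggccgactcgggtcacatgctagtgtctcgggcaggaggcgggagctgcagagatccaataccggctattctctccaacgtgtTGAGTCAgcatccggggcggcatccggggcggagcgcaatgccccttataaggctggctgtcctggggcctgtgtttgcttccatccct
Gstp3 upstream: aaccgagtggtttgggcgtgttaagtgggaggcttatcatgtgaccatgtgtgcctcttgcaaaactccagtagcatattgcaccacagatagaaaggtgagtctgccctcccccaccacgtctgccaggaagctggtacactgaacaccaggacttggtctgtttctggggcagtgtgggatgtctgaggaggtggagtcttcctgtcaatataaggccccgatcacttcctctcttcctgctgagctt

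The Gstp1 and Gstp2 windows were 78.1% identical, while those of Gstp1 and Gstp3 were 50% identical. TGAGTCA was searched on both strands and occurred in 7 of 61 windows of 51 conjugation enzymes (11.5%) and in 4.46% of all 32851 windows. The Gstp3 window does not hold these letters. The other motifs searched, also on both strands, were TGACNNNGC (antioxidant response element core), found in 4 of 61 windows and in 10.2% of all windows, GCGTG (AHR core), in 11 of 61 and 28.2%, and TTCNNNGAA (STAT5 core), in 3 of 61 and 7.02%. A match is a description of the letters only.

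Among the other glutathione transferases, Gsto1, an omega enzyme with thioltransferase and dehydroascorbate reductase activity, rose. It was 74.1, 78.9 and 68.5 FPKM in Ad-Dyrk1b and 53.5, 51.7 and 55.5 FPKM in Ad-EGFP livers, with no overlap (log2 fold change 0.55 ± 0.10, adjusted p = 0.0051). The other classes were not called. Gstk1, the kappa enzyme of mitochondria and peroxisomes, was higher in each Ad-Dyrk1b library (96.8, 105 and 90.9 FPKM) than in any control (84.6, 68.3 and 88.2 FPKM), with an adjusted p of 0.0745. Gstt1 was also apart (198, 205 and 200 against 192, 163 and 165 FPKM, adjusted p = 0.114). Gstz1, which works in tyrosine breakdown, was 224, 218 and 265 FPKM against 251, 234 and 264 FPKM (log2 fold change -0.01 ± 0.12).

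Of the membrane-bound enzymes, Mgst3, which can conjugate leukotriene A4 and reduce lipid peroxides, was higher. Its values were 106, 92.4 and 77.2 FPKM in Ad-Dyrk1b and 65.7, 72.4 and 67.2 FPKM in Ad-EGFP livers (log2 fold change 0.50 ± 0.11, adjusted p = 0.0131). Leaving out Ad-Dyrk1b replicate 1 or 2, or control replicate 3, ended the call (adjusted p up to 0.0518). Mgst1, the main microsomal enzyme, was 2115, 1960 and 2016 FPKM against 1888, 1734 and 2011 FPKM (log2 fold change 0.17 ± 0.11, adjusted p = 0.341). Mgst2 was 4.46, 6.19 and 3.4 FPKM against 5.18, 6.91 and 5.72 FPKM, with overlap.

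**Figure D3:**
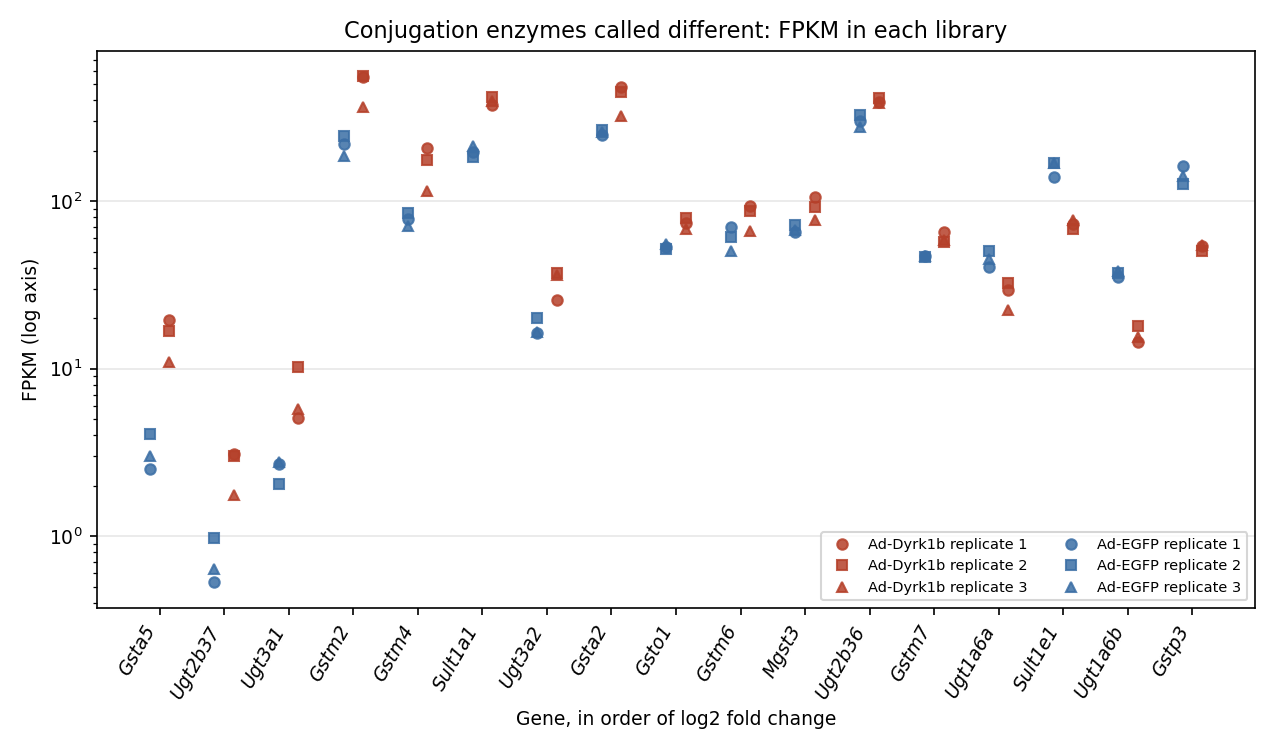
FPKM (log axis) in each of the 6 libraries for the 17 called enzymes, in order of log2 fold change from Gsta5 to Gstp3. Red symbols are Ad-Dyrk1b and blue symbols Ad-EGFP libraries, with circles, squares and triangles for replicates 1, 2 and 3. The groups are apart in every gene except Gstm6.

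In the Ugt1a locus, the phenol-conjugating enzymes Ugt1a6a and Ugt1a6b fell. Ugt1a6b was 14.4, 17.9 and 15.4 FPKM in Ad-Dyrk1b and 35.5, 37.1 and 38.1 FPKM in Ad-EGFP livers, well apart (log2 fold change -1.12 ± 0.12, adjusted p = 8.32e-05). Ugt1a6a was 29.5, 32.6 and 22.5 FPKM against 40.6, 50.5 and 45.2 FPKM, also apart (-0.61 ± 0.15, adjusted p = 0.0233). The Ugt1a6a call ended without Ad-Dyrk1b replicate 1 and without control replicate 2 or 3 (adjusted p up to 0.0773). Summed, the pair came to 99.3, 114 and 83.0 CPM in Ad-Dyrk1b and 170, 197 and 190 CPM in Ad-EGFP livers, a ratio of 0.531 with no overlap.

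The other 7 genes of the locus, summed, came to 820, 1014 and 831 CPM in Ad-Dyrk1b and 753, 777 and 606 CPM in Ad-EGFP livers, a ratio of 1.25 with no overlap. Of the 5 of these that were tested, edgeR called 0. DESeq2 called Ugt1a10 and Ugt1a1, and limma-voom called 0. Unadjusted edgeR p-values were under 0.05 for Ugt1a10 (0.0093), Ugt1a1 (0.0118) and Ugt1a9 (0.0425), but not for Ugt1a5 and Ugt1a7c. Over all 13201 tested genes, 3757 had an unadjusted edgeR p under 0.05. Ugt1a1, the bilirubin-conjugating enzyme, was 148, 168 and 168 FPKM in Ad-Dyrk1b and 135, 145 and 124 FPKM in Ad-EGFP livers, with the groups apart (log2 fold change 0.35 ± 0.12, adjusted p = 0.0748). Ugt1a10 was 5.90, 5.14 and 10.8 FPKM against 4.06, 2.75 and 3.09 FPKM, apart as well (1.13 ± 0.33, adjusted p = 0.0642). Ugt1a9, the most abundant gene of the locus, was 193, 255 and 176 FPKM against 177, 189 and 130 FPKM (0.42 ± 0.18, adjusted p = 0.160).

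Neighbours of 1 shared 3′ end thus had values on both sides of 0. The sum of all 9 Ugt1a genes was 919, 1127 and 914 CPM in Ad-Dyrk1b and 923, 974 and 797 CPM in Ad-EGFP livers, with overlap and a ratio of 1.10. Ugt1a5 (0.54 ± 0.26) and Ugt1a7c (0.25 ± 0.32) were not called.

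**Figure D4:**
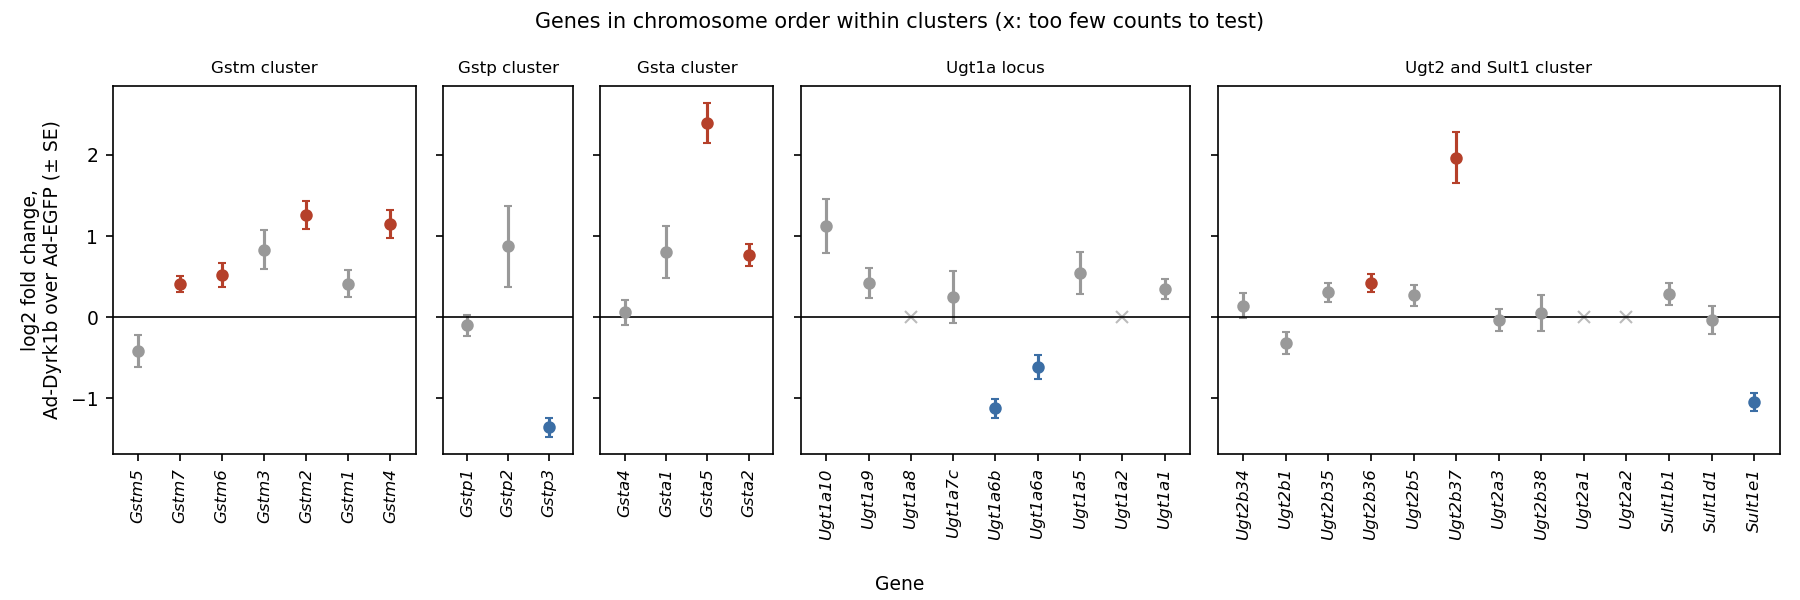
Log2 fold change (Ad-Dyrk1b over Ad-EGFP, y axis, bars for standard errors) of genes in 5 clusters, in chromosome order from left to right. Red is called higher, blue called lower, grey not called, and a cross at 0 marks a gene with too few counts to test. Calls of both directions do not occur within 1 cluster except in the Ugt2 and Sult1 block, where Ugt2b36 and Ugt2b37 were higher and Sult1e1 was lower.

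The Ugt2 enzymes, which glucuronidate steroids and bile acids among other substrates, had 8 tested genes. Of these, 2 were higher (25%, against 7.36% of all tested genes). Ugt2b37 was 3.10, 3.01 and 1.77 FPKM in Ad-Dyrk1b and 0.53, 0.97 and 0.64 FPKM in Ad-EGFP livers, apart but at a low level (log2 fold change 1.97 ± 0.31, adjusted p = 0.0017). Its coding identity with the abundant Ugt2b5 was 94.7%. Of its stretches, 18.3% of those of 50 bases and 1.06% of those of 100 bases also occurred in other genes. Whether reads of such genes entered its low counts was not tested. Ugt2b36, 1 of the 2 most abundant Ugt2 genes, was 389, 411 and 384 FPKM against 301, 325 and 277 FPKM (0.42 ± 0.11, adjusted p = 0.0300). That call ended when Ad-Dyrk1b replicate 2 or any 1 of the 3 controls was left out (adjusted p up to 0.115).

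Ugt2b5, a near copy of Ugt2b38 with 97.0% coding identity, was 401, 407 and 304 FPKM in Ad-Dyrk1b and 335, 343 and 300 FPKM in Ad-EGFP livers, with overlap (0.27 ± 0.13, adjusted p = 0.207). Ugt2b34 was 284, 311 and 219 FPKM against 270, 289 and 222 FPKM, and Ugt2b35 was 182, 158 and 148 FPKM against 139, 151 and 128 FPKM. Ugt2b1 was below the controls in each library (32.5, 37.9 and 30.2 against 49.9, 43.6 and 39.4 FPKM), but did not pass (-0.32 ± 0.13, adjusted p = 0.136). Summed over the 7 Ugt2b genes the groups overlapped, with a ratio of 1.12.

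Both Ugt3a genes were higher. The human UGT3A enzymes are known to use sugar donors other than UDP-glucuronic acid. Ugt3a1 was 5.11, 10.2 and 5.71 FPKM in Ad-Dyrk1b and 2.71, 2.06 and 2.78 FPKM in Ad-EGFP livers (log2 fold change 1.57 ± 0.29, adjusted p = 0.0086). Ugt3a2 was 25.6, 37.2 and 36.2 FPKM against 16.4, 20.1 and 16.6 FPKM (0.99 ± 0.16, adjusted p = 0.0033). The groups were apart in both. In this pair, with 93.2% coding identity and 0% of 100-base stretches shared, Ad-Dyrk1b replicate 1 was the lowest of its group, unlike in the alpha and mu classes.

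Of the 10 sulfotransferases, 5 were tested, and 1 rose and 1 fell (20% each, against 7.36% and 4.81% of all tested genes). Sult1a1, which sulfates phenols, was 377, 419 and 394 FPKM in Ad-Dyrk1b and 195, 184 and 213 FPKM in Ad-EGFP livers (log2 fold change 1.09 ± 0.12, 2.13-fold, adjusted p = 9.45e-05). Sult1e1, the oestrogen sulfotransferase, was 73.4, 67.9 and 77.2 FPKM against 140, 169 and 169 FPKM (-1.05 ± 0.11, adjusted p = 7.75e-05). In both genes the groups were far apart and Ad-Dyrk1b replicate 3 was not the lowest of its group. Sult1a1 shares 61 exonic bases with Sgf29 on the opposite strand, and the strand setting of the counting is not given.

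The shares of both enzymes within the class differed between groups with no overlap. Of the summed FPKM of the 6 Sult1 genes, Sult1a1 held 61.8%, 58.3% and 58.7% in the Ad-Dyrk1b libraries and 35.6%, 31.7% and 37.3% in the Ad-EGFP libraries. Sult1e1 held 12%, 9.44% and 11.5% against 25.5%, 29.2% and 29.7%. Sult1d1, which acts on catecholamines, was 137, 213 and 172 FPKM against 194, 209 and 168 FPKM, with overlap (-0.03 ± 0.17). Sult1b1, at 18.6, 14.4 and 21.9 FPKM against 16.0, 15.2 and 16.4 FPKM, and Sult1c2, at 3.94, 4.17 and 5.54 FPKM against 3.68, 3.34 and 4.50 FPKM, were not called.

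All 57 enzymes together took 2.62%, 2.56% and 1.97% of the counts in the Ad-Dyrk1b libraries and 2.04%, 2.07% and 1.86% in the Ad-EGFP libraries. The ratio of means was 1.20, with overlap, and 1.30 without Ad-Dyrk1b replicate 3.

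Conjugation also needs cofactors, exporters and regulators, for which 63 genes were listed, 61 of them in the deposited table and 58 tested. Of these, 8 were called higher and 2 lower. Over all tested genes, 7.36% were called higher and 4.81% lower. In the supply of UDP-glucuronic acid 0 of 6 genes was called by edgeR, DESeq2 or limma-voom (1 of 6 had an unadjusted p under 0.05). With the replicate block 1 was higher (Ugp2). Ugdh, which makes UDP-glucuronic acid, was 303, 321 and 250 FPKM in Ad-Dyrk1b and 249, 281 and 233 FPKM in Ad-EGFP livers (log2 fold change 0.28 ± 0.13, adjusted p = 0.177).

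For glutathione, 1 of 17 genes was called higher and 1 lower (5.88% each, near the shares over all tested genes). Ggt1, which degrades glutathione outside the cell, was 2.36, 1.83 and 1.44 FPKM in Ad-Dyrk1b and 0.44, 0.45 and 0.32 FPKM in Ad-EGFP livers (2.41 ± 0.39, adjusted p = 0.0019). Chac1, which degrades it in the cytosol, was 1.15, 1.22 and 1.33 FPKM against 2.72, 5.41 and 5.39 FPKM (-1.77 ± 0.28, adjusted p = 0.0017). Both are at low levels and apart between groups. Gclc, the catalytic subunit of the rate-limiting enzyme of glutathione synthesis, was 381, 354 and 230 FPKM against 261, 391 and 256 FPKM, with overlap (0.17 ± 0.21). The number of higher genes depended on the fit. DESeq2 called 3, adding Cth and Cbs of cysteine synthesis, whose groups were apart (edgeR adjusted p = 0.0955 and 0.0712). Without Ad-Dyrk1b replicate 3 edgeR also called 3, adding glutathione reductase (Gsr) and the cystine transporter Slc7a11, and it called 2, adding Cbs, without Ad-EGFP replicate 3 or with the replicate block.

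In sulfate activation and transport, Papss2, which makes PAPS, was 53.7, 65.8 and 58.5 FPKM in Ad-Dyrk1b and 46.6, 47.9 and 41.4 FPKM in Ad-EGFP livers (0.48 ± 0.12, adjusted p = 0.0261). The sulfate transporter Slc26a1 was 31.3, 31.7 and 36.1 FPKM against 28.1, 27.1 and 25.7 FPKM (0.39 ± 0.11, adjusted p = 0.0347). Neither call held without Ad-Dyrk1b replicate 2 or 3, or control replicate 1 or 3, and that of Slc26a1 also ended without control replicate 2 (adjusted p up to 0.105 and 0.114). Both FPKM fits called 0 of these genes. Papss1 (-0.16 ± 0.13), Slc35b2 (-0.25 ± 0.10) and Slc35b3 (-0.08 ± 0.13) were not called, but the FPKM of each were lower in Ad-Dyrk1b with no overlap. In CPM the groups overlapped for Slc35b3 (16.2, 14.3 and 14.4 against 16.8, 17.6 and 15.9). Of the 7 tested genes of this list, 3 values were above 0 and 4 below, with a median of -0.005. By FPKM the groups were apart as higher in 2 and as lower in 3, against 10.9% and 21.9% of all tested genes.

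Of 6 exporters, 3 were called higher (50%, against 7.36% of all tested genes), namely Abcc4, Abcb1a and Abcc3. Abcb1a (P-glycoprotein) was 13.9, 14.5 and 12.6 FPKM in Ad-Dyrk1b and 8.25, 9.31 and 8.05 FPKM in Ad-EGFP livers (0.77 ± 0.11, adjusted p = 0.00076). Abcc4, which sends conjugates from the hepatocyte to the blood, was 29.0, 22.1 and 12.4 FPKM against 6.49, 9.49 and 6.40 FPKM (1.58 ± 0.32, adjusted p = 0.0295), again with replicate 3 the lowest of its group. The call ended when Ad-Dyrk1b replicate 1 or 2 or any 1 control was left out (adjusted p up to 0.134), and with no filter on low counts. Abcc3, also on the blood side, was 47.9, 47.3 and 41.4 FPKM against 29.4, 41.9 and 36.5 FPKM (0.43 ± 0.13, adjusted p = 0.0450, and up to 0.177 when Ad-Dyrk1b replicate 1 or 2, or control replicate 1 or 3, was left out). The groups overlapped for Abcc3, and neither FPKM fit called it.

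Of 11 tested sensors and partners, 10 had a log2 fold change below 0, with a median of -0.23. The FPKM values of 8 were lower in Ad-Dyrk1b with no overlap, against 21.9% of all tested genes. Of the 11, 1 was called lower (9.09%, against 4.81% of all tested genes). Arnt, the partner of Ahr, stood at 9.26, 9.77 and 7.81 FPKM against 11.5, 14.8 and 11.6 FPKM (-0.41 ± 0.12, adjusted p = 0.0494). The call ended in limma-voom and in 5 of the 6 fits without 1 library, all but the one without Ad-Dyrk1b replicate 2 (adjusted p up to 0.152). The other values were 0.11 ± 0.13 for Nr1i3 (CAR), -0.04 ± 0.10 for Nr1i2 (PXR), -0.46 ± 0.20 for Ahr (adjusted p = 0.164), -0.002 ± 0.11 for Nfe2l2 (NRF2) and -0.16 ± 0.11 for Keap1, and these were not called. With the replicate block 3 were lower (Arnt, Ahr and Ppara), and without Ad-Dyrk1b replicate 2 there were 2 (Arnt and Ahr). DESeq2 called 2 (Arnt and Rxra), while both FPKM fits called Rxra alone.

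Among 11 tested genes known as targets of these sensors, Cyp2b10 and Cyp4a14 were higher (18.2%, against 7.36% of all tested genes). Cyp2b10, a CAR target, was 137, 190 and 124 FPKM in Ad-Dyrk1b and 53.0, 80.5 and 79.0 FPKM in Ad-EGFP livers (1.18 ± 0.21, adjusted p = 0.0077). Cyp4a14, a PPAR alpha target, was 741, 812 and 784 FPKM against 332, 420 and 393 FPKM (1.12 ± 0.13, adjusted p = 0.00015). The AHR targets Cyp1a1 (8.59, 3.4 and 1.74 against 1.70, 2.90 and 1.32 FPKM) and Cyp1a2 (432, 313 and 139 against 119, 163 and 76.0 FPKM) overlapped between groups, with adjusted p of 0.256 and 0.158. Cyp1a2 was called by DESeq2, limma-voom and the fit with the replicate block, and without Ad-Dyrk1b replicate 3 its adjusted p was 0.0191. Cyp3a11, a PXR target, was 4647, 5343 and 4675 FPKM against 3865, 4161 and 3958 FPKM, with no overlap, but was called by DESeq2 alone (0.38 ± 0.13, adjusted p = 0.0831 in edgeR).

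Of the NRF2 targets, Nqo1 was 134, 110 and 89.9 FPKM against 107, 102 and 90.6 FPKM (0.23 ± 0.13, adjusted p = 0.269). Srxn1, which repairs oxidised peroxiredoxins, was 344, 261 and 154 FPKM against 130, 185 and 143 FPKM (0.81 ± 0.27, adjusted p = 0.0906), and Txnrd1, a thioredoxin reductase, was 96.2, 82.8 and 61.3 FPKM against 66.9, 74.3 and 66.6 FPKM (0.30 ± 0.14, adjusted p = 0.180). In both, Ad-Dyrk1b replicates 1 and 2 were above all controls and replicate 3 was not. Without replicate 3 both were called (adjusted p = 0.0012 and 0.0274), and Srxn1 was also called with the replicate block. Hmox1 overlapped between groups (-0.005 ± 0.29). The number of the 11 target genes called as higher was thus 2 in edgeR, 3 in limma-voom, 4 in DESeq2 and with the replicate block, and 5 without Ad-Dyrk1b replicate 3.

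**Figure D5:**
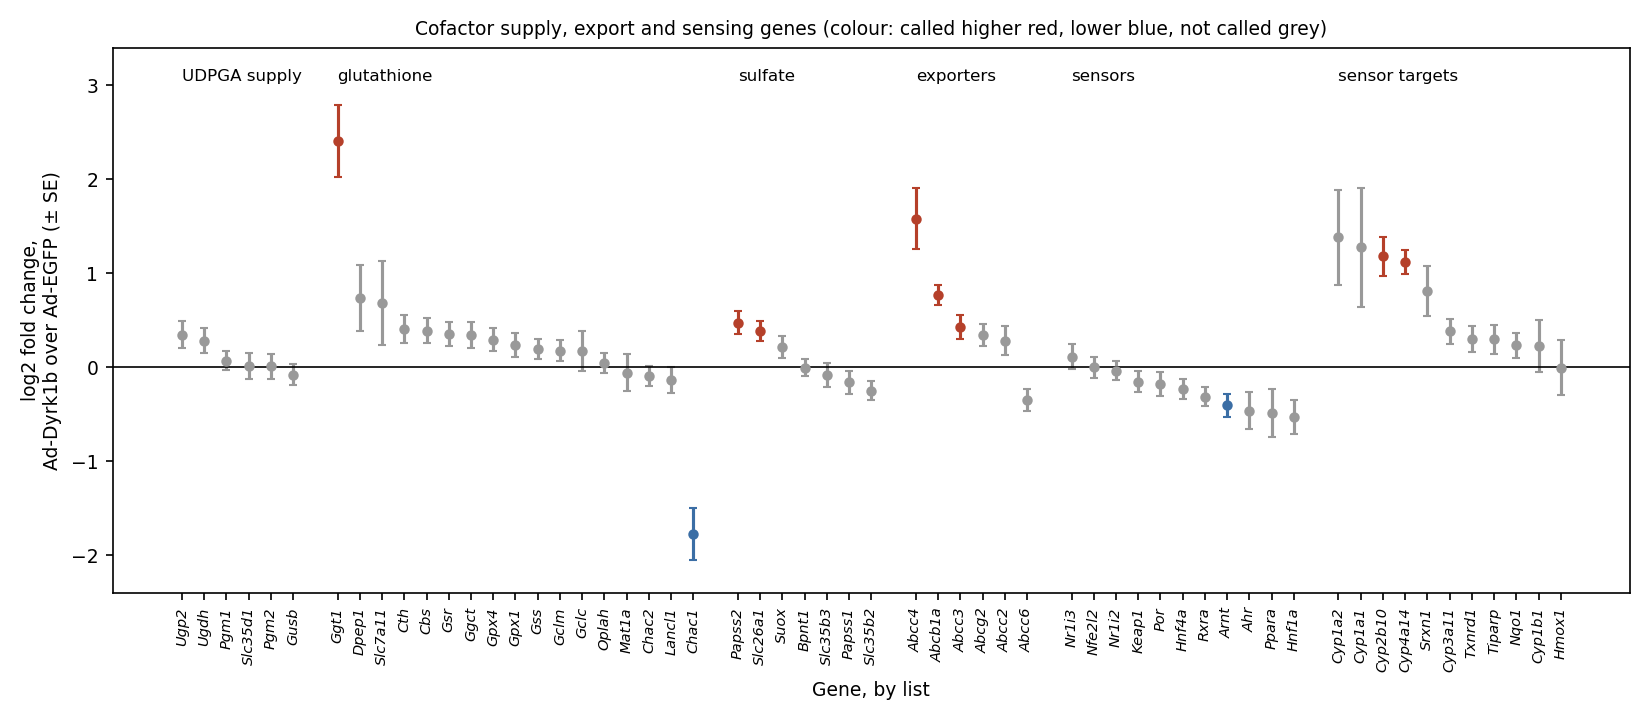
Log2 fold change (Ad-Dyrk1b over Ad-EGFP, y axis, bars for standard errors) of 58 tested genes for cofactor supply, export and sensing, grouped by list. Red is called higher (8), blue called lower (2) and grey not called. Ggt1 and Chac1 hold the extremes at 2.41 and -1.77.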

How the data were processed

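mRNA of whole liver was sequenced on a NovaSeq from libraries made with a NEBNext Ultra kit, per the labels' protocols. The deposited table holds raw counts per gene and library and FPKM values made by the authors, per the file headers, together with the authors' mean FPKM per group, a log2 ratio of the means, a p-value and a q-value (FDR). The submitters' processing notes name the build mm10 and DESeq2. Aligner, counter, strand setting, annotation release and the handling of reads that match several genes: not given in the sources used here.

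Counts were tested with edgeR 4.0.16 (R 4.3.3) by a robust quasi-likelihood F-test, two-sided, with TMM scaling and filterByExpr (minimum count 10, minimum total 15), for 3 Ad-Dyrk1b against 3 Ad-EGFP libraries. Benjamini-Hochberg adjustment ran over the 13201 genes tested, with calls at an adjusted p under 0.05. The value after ± is the standard error. The code was tested on simulated data. CPM are scaled to the library's total count. Sums and levels carry no test. Of the erythroid marker list, 1 gene is not reported here and is left out of the sum. Floors cover counting error only.

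Coordinates and transcripts came from GENCODE M21 (GRCm38, the same assembly as mm10), and windows before start sites from RefSeq (GRCm38.p6), with 51 of 57 members matched. Identity was computed from global alignments (Biopython 1.88), with gaps counted as differences. For coding identity the longest coding sequence of each gene was taken. Alternatives were DESeq2 1.42.0, limma-voom and limma-trend on log2(FPKM + 1) or log2(FPKM + 0.1) (limma 3.58.1), no filter, a replicate block and each library left out. The members, lists and motifs were chosen with earlier results of these data known. Named were Dyrk1b, all called members, the 4 most abundant of each class, members whose groups were apart, the called genes of the pathway lists and a fixed set of sensors and targets. Gm3776, Gsta1, Gsta4, Gstm5, Gstp2, Gstz1, Sult1c2, Ugt1a5, Ugt1a7c and the weakly expressed genes were added to complete their families. Sox9, Cth, Cbs, Gsr, Slc7a11, Slc35b2, Slc35b3, Rxra, Ppara, Ugp2, Cyp3a11, Srxn1, Txnrd1 and Hmox1 were named after their values were seen.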

Additional observations from a re-analysis of the deposited data

How the results depend on the processing

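The number of conjugation enzymes called stayed within 1.5 times under all 12 alternatives. It was 9 to 18 higher against 13, and 3 or 4 lower against 4. Called in all 12 were Gstp3, Sult1a1, Gsta5, Sult1e1, Ugt1a6b, Gstm2, Gstm4, Ugt3a2, Ugt3a1, Ugt2b37, Gsta2 and Gsto1. Mgst3, Ugt2b36, Gstm7 and Gstm6 were lost in both FPKM fits and when single libraries were left out, and Ugt1a6a when single libraries were left out. For no called enzyme did the direction change.

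Over all genes, 972 higher and 635 lower calls became 566 and 712 with log2(FPKM + 1), and 569 and 725 with log2(FPKM + 0.1), where the median of all genes was -0.06 and -0.08. The cause was not tested. With 1 library left out, 612 to 800 genes were higher and 294 to 461 lower, with fewer samples in each fit. The replicate block gave 1109 higher and 774 lower genes, and 16 higher and 4 lower enzymes, adding Gstm3, Ugt1a10 and Ugt1a9. Same-numbered libraries deviated together at r = 0.05, 0.22 and 0.12. Ad-Dyrk1b replicate 1 correlated best with Ad-EGFP replicate 3 (r = 0.11), while Ad-Dyrk1b replicates 2 and 3 correlated best with their own numbers. With 3 libraries per group, these values cannot tell whether the numbers pair the samples. Genes below about 0.150 to 0.173 CPM could not be measured at this depth.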

Other observations

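The authors' deposited table gives an FDR under 0.05 to 20 of the 57 enzymes, 16 higher and 4 lower. These include all 17 called by edgeR, with the same direction, which is 85% of the authors' list and 100% of the edgeR list. The other 3 are Gstm3, Ugt1a10 and Ugt1a1.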
